A study of Mus musculus with 2 samples.

Results

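The cells described here are circulating B cells of mice that carried Vpreb3 transcripts and no Fcer2a transcript, a combination proposed as a mark of transitional B cells. A barcode counted as a B cell if it had 200 to 6000 genes, under 10% of its UMIs (unique molecular identifiers, 1 per captured transcript) from mitochondrial genes, under 20% from haemoglobin genes, at least 3 UMIs of Cd79a, Cd79b and Ms4a1 together, no Cd3d, Cd3e or Cd3g UMI, and fewer than 3 of 7 platelet genes detected. Of the 4494 B cells so defined, among 36612 barcodes, 954 had at least 1 Vpreb3 UMI and no Fcer2a UMI and are called Vpreb3+ Fcer2a- B cells below: 468 of 2344 B cells in wt and 486 of 2150 in db/db. The other B cells served for comparison, namely 2191 with an Fcer2a UMI (Fcer2a+, with or without Vpreb3) and 1349 with neither transcript.

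The study set wild-type (wt) mice beside db/db mice, which carry a mutation of the leptin receptor and become obese and diabetic. Both groups were male C57BLKs/J mice aged 21 weeks, with no treatment named in the labels, and 3 mice per group gave 200 µl of blood per group, from which red cells were lysed before droplet 3′ single-cell RNA sequencing. Each genotype is 1 library, and the mouse behind each cell is not recorded, so the genotypes are compared without a test. Intervals given with values are 95% intervals for counting error alone: exact Poisson for a level, exact conditional binomial for a ratio, and Clopper-Pearson for a share.

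Transitional B cells are the youngest B cells found outside the bone marrow. They leave the marrow with IgM on their surface, express CD93 and high CD24, and mature in the spleen into follicular B cells, which gain IgD, the complement receptor CD21 (Cr2) and CD23 (Fcer2a), or into marginal zone B cells. Vpreb3 encodes a chaperone that binds newly made immunoglobulin chains in B cell precursors and persists in immature B cells. The survival of transitional cells depends on the cytokine BAFF and on signals of the B cell receptor, and many self-reactive clones are lost at this stage.

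The library depths were 50540198 UMIs over 16700 barcodes in wt and 70039773 UMIs over 19912 barcodes in db/db, and 91 barcode sequences occurred in both, among them those of 3 wt and 4 db/db Vpreb3+ Fcer2a- cells. These cells had similar depth in the libraries, with median UMIs of 2382.5 in wt and 2153 in db/db and median genes of 1096 and 998, and summed to 1120399 and 1115159 UMIs. Signs of RNA quality and handling differed more. The median mitochondrial share was 4.95% in wt and 3.97% in db/db, the haemoglobin share 1.16% and 1.64%, the rRNA-overlapping transcript Gm42418 took a median of 2.30% and 0.433%, and nuclear Malat1 stood at 36516 and 23100 CPM (UMIs per 1000000 UMIs of the summed cells). At least 2 markers of 1 other lineage were seen in 44 wt (9.40%) and 81 db/db cells (16.7%). The part of these differences in the results was not tested, apart from the values without such cells given below.

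Vpreb3, Spib and Fam129c are the markers of these cells whose upstream sequence was on hand, and their levels moved together across the cells below, so the stretch before each RefSeq start (GRCm38.p6, printed 5′ to 3′ on the gene's strand, 3 of 7 genes sought matched) is shown. Capitals mark motif matches. Windows of 250 bases were searched on both strands for the octamer ATGCAAAT bound by Oct factors, the EBF half-sites TCCC and GGGA 2 bases apart, the E-box CAGGTG and the GAGGAAGT core of PU.1 and Spi-B.
Vpreb3, chr10:75948050-75948299, plus strand: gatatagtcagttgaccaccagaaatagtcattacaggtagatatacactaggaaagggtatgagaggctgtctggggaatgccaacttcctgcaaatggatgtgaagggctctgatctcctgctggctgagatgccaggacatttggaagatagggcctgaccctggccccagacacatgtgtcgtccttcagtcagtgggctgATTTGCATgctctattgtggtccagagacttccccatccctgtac
Spib, chr7:44532072-44532321, minus strand: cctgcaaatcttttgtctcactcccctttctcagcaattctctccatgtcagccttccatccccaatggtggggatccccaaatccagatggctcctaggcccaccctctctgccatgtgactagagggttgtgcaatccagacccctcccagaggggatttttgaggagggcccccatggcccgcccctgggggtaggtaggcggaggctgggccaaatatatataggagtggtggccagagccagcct
Fam129c, chr8:71597458-71597647, plus strand, cut at the start of the GENCODE exon: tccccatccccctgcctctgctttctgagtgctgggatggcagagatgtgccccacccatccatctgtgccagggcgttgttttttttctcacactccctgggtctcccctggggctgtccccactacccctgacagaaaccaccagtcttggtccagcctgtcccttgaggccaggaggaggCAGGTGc
The Vpreb3 window held 1 octamer, on the minus strand, beginning at base -45 from the start. An octamer was present in 1.60% of 32851 promoter windows of that length. Fam129c had 1 CAGGTG at base -67, a motif found in 17.2% of windows, and the Spib window held none of the 4 motifs. EBF matches occurred in 0.779% of windows and PU.1 matches in 2.44%. A match describes letters and not a bound site.

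Vpreb3+ Fcer2a- cells made up 19.97% of wt B cells (18.4 to 21.6) and 22.6% of db/db B cells (20.9 to 24.4). Their ratio of 1.13 has an interval, 0.995 to 1.29, that includes 1. The rest of the B cells were divided differently. Fcer2a+ cells were 54.6% in wt and 42.4% in db/db (ratio 0.777, 0.713 to 0.847), and cells with neither transcript were 25.5% and 35.0% (ratio 1.37, 1.23 to 1.53). The cells differed in their amounts of Vpreb3, which are given as a description because the gene chose the cells. A wt cell held a median of 2 and at most 22 Vpreb3 UMIs, and a db/db cell a median of 1 and at most 14. Exactly 1 Vpreb3 UMI was found in 203 wt cells (43.4%) and 312 db/db cells (64.2%), which sit just inside the rule. Just outside it were 182 wt and 225 db/db cells with Vpreb3 and exactly 1 Fcer2a UMI. At the other end, 130 wt cells (27.8%, 23.8 to 32.1) and 20 db/db cells (4.12%, 2.53 to 6.28) had 4 or more Vpreb3 UMIs. Counted over all B cells, such cells without Fcer2a were 5.55% in wt and 0.9302% in db/db (db/db over wt 0.168, 0.0992 to 0.270). T cell barcodes, which should lack Vpreb3, held it in 4 of 419 wt barcodes (0.955%, median depth 3278 UMIs) and in 0 of 292 in db/db (median depth 2831 UMIs), which allows up to 1.03%.

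**Figure D1:**
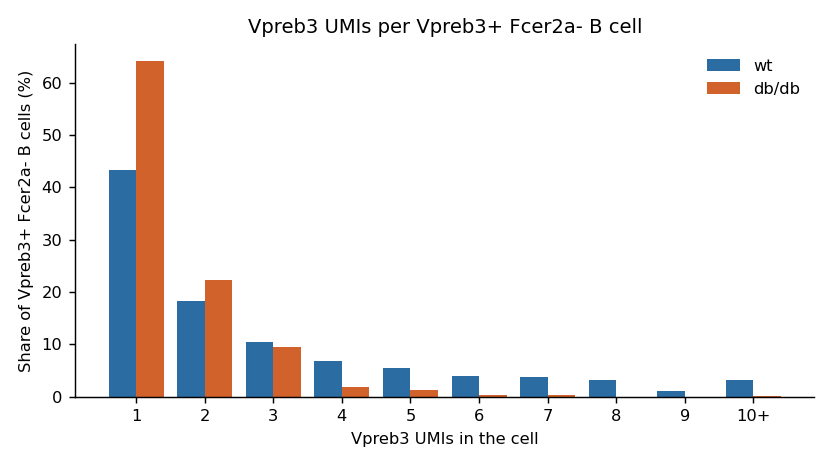
Share of Vpreb3+ Fcer2a- B cells (vertical axis, percent of the 468 wt or 486 db/db cells) by the number of Vpreb3 UMIs in the cell (horizontal axis, the last bars pooling 10 or more). Bars at 1 UMI reach 43.4% in wt and 64.2% in db/db, and bars from 4 UMIs upward are higher in wt.

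Vpreb3 and Fcer2a were linked in wt and not visibly in db/db. Among wt B cells with 1, 2, 3, and 4 or more Vpreb3 UMIs, the share without Fcer2a was 43.9%, 50% (86 of 172), 60.5% and 76.9% (69.8 to 83.0). The same shares in db/db were 58.2%, 51.9%, 55.4% and 57.1% (39.4 to 73.7). In wt the B cells richest in Vpreb3 thus mostly lacked CD23 transcripts, whereas the 4 db/db shares have overlapping intervals.

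The label of transitional cells was checked against 5 immature B cell markers that the rule did not use. Cd93 (ENSMUSG00000027435, chr2:148436640-148443563, minus strand) encodes the surface receptor that defines early transitional cells. Cd24a (ENSMUSG00000047139, chr10:43578284-43584265, plus strand) encodes heat-stable antigen. Spib (ENSMUSG00000008193, chr7:44525993-44532071, minus strand) encodes an Ets factor of B cells, Akap12 (ENSMUSG00000038587, chr10:4266380-4359470, plus strand) a kinase anchor, and Fam129c (ENSMUSG00000043243, chr8:71597648-71607936, plus strand) a protein of B cells. These positions, from GENCODE M21 on GRCm38, are of whole protein-coding genes, and Vpreb3 itself spans chr10:75943057-75949657. Spib, Fam129c and Akap12 came with the definition of these cells, chosen from the same data, so their levels describe the cells and are not independent evidence.

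All 5 markers were higher in the wt Vpreb3+ Fcer2a- cells than in wt Fcer2a+ cells, and in db/db the excess was smaller. Cd93 stood at 53.6 CPM (60 UMIs, 40.9 to 68.9) in wt Vpreb3+ Fcer2a- cells and 9.86 CPM (11 UMIs, 4.92 to 17.6) in db/db ones, against 7.24 and 5.05 CPM in Fcer2a+ cells. Cd24a was at 583 CPM in the wt cells and 176 CPM in the db/db cells, against 190 and 148 CPM in Fcer2a+ cells. The wt cells were high and the other 3 groups lay close together. Spib gave 461 and 149 CPM, with 159 and 125 CPM in Fcer2a+ cells. Fam129c was at 208 and 43.0 CPM, beside 38.4 and 19.8 CPM in Fcer2a+ cells. Akap12 had 159 and 32.3 CPM, beside 23.6 and 13.3 CPM. Relative to Fcer2a+ cells of the same library, Fam129c was 5.41-fold higher in wt and 2.18-fold (1.41 to 3.37) in db/db, Akap12 6.73-fold and 2.42-fold (1.44 to 4.10), and Cd24a 3.06-fold and 1.19-fold (0.992 to 1.43). Cells were also thinned to 1000 UMIs and chosen again by the rule, so cells that lost their Fcer2a UMIs could enter the group. In those 388 wt and 357 db/db cells, the log2 ratio to Fcer2a+ cells was 1.40 and 0.024 for Fam129c. For Akap12 it was 1.67 and 0.25. In the original db/db cells at that depth, Fam129c was detected in 2.93%, against 1.89% of Fcer2a+ cells. Akap12 was detected in 2.93%, against 1.56%, and both pairs of intervals overlap. Without cells holding markers of another lineage, the log2 ratio was 0.51 for Fam129c and 0.48 for Akap12 in db/db. None of the 5 markers was detected in 113 wt cells (24.1%) and 247 db/db cells (50.8%). Cd93, which like Cd24a did not come with the definition, was 7.40-fold higher in wt and 1.95-fold (0.767 to 4.96) in db/db. With cells thinned to 1000 UMIs and chosen again by the rule, its log2 ratio was 0.86 in wt and -0.086 in db/db. The db/db intervals of Cd93 and Cd24a both include 1. The label of transitional cells is therefore met more weakly in db/db. Of the 5 markers, only ones that came with the definition exceeded Fcer2a+ cells there beyond counting error. Of 10 measured genes of the immature B list used below, 4 had intervals above 1 in db/db, beside 3.14% of all genes. Among them was Atp1b1 (1.51-fold, 1.002 to 2.27), which did not come with the definition. The cells of both libraries are called by the rule.

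**Figure D2:**
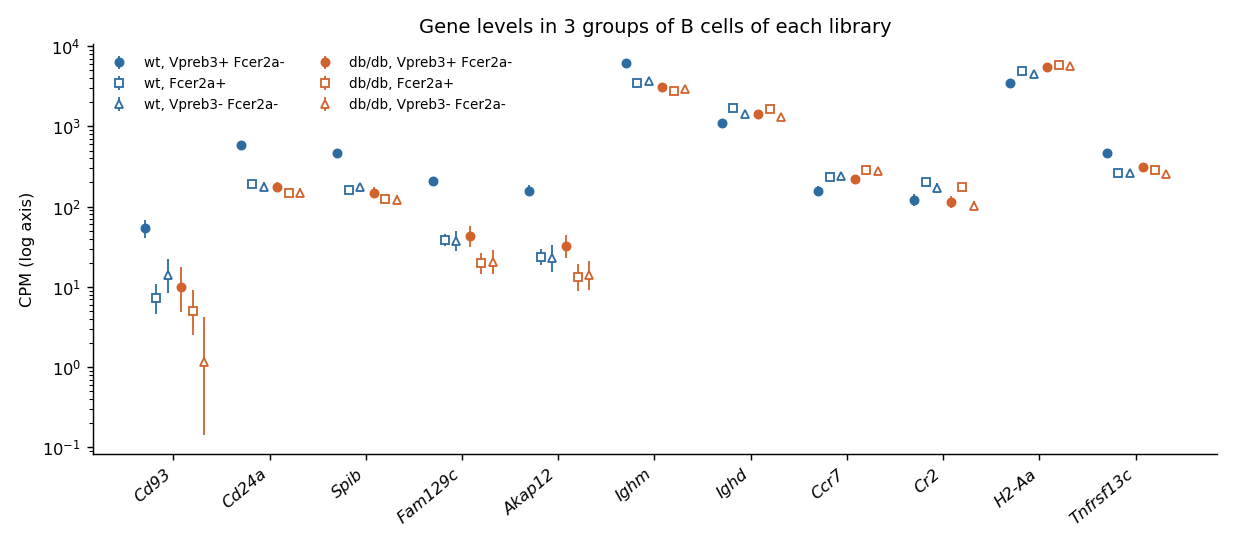
Level of 11 genes (CPM, log axis) in Vpreb3+ Fcer2a- (filled circles), Fcer2a+ (open squares) and Vpreb3- Fcer2a- B cells (open triangles) of the wt (blue) and db/db (orange) libraries, with exact 95% Poisson intervals. The filled wt circles stand apart for Cd93, Cd24a, Spib, Fam129c, Akap12 and Ighm, while the db/db circles lie nearer to the open symbols, as with 583 and 176 CPM for Cd24a.

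Counting cells gave the same picture. A UMI of at least 2 of the 5 markers was found in 235 of 468 wt cells (50.2%, 45.6 to 54.8), and in 74 of 486 in db/db (15.2%, 12.1 to 18.7), so that db/db over wt was 0.303 (0.230 to 0.395). In Fcer2a+ cells the wt share was 15.8% (13.8 to 17.9) and the db/db share 10.9% (8.91 to 13.1). Every cell was then thinned to 1000 UMIs and kept in its original group, which left out 24 wt and 8 db/db cells as too shallow. The shares were 27.7% of 444 and 4.81% of 478 (db/db over wt 0.174, 0.106 to 0.273). Fcer2a+ cells then had 4.48% (3.39 to 5.79) for wt against 1.44% (0.771 to 2.46) for db/db, below the Vpreb3+ Fcer2a- cells of the same library. Spib, Fam129c and Akap12 enter this count and came with the definition, so the count describes the cells and is not independent evidence. T cell barcodes reached 2 markers in 1 of 419 in wt (0.239%) and 0 of 292 in db/db, at median depths of 3278 and 2831 UMIs. Per gene, Cd24a was detected in 57.3% of wt and 28.6% of db/db cells, Spib in 50.6% and 25.9%, Fam129c in 26.7% and 7.82%, Akap12 in 22.4% and 5.35%, and Cd93 in 9.40% and 1.65%. Their shares in T cell barcodes ran from 0.239% for Cd93 to 5.25% for Cd24a in wt. Thinned to 1000 UMIs, Cd24a was detected in 34.2% and 14.9% of cells and Cd93 in 3.83% and 0.628%. Fcer2a+ cells then had 13.9% in wt and 12.4% in db/db for Cd24a, and 0.733% and 0.556% for Cd93.

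Within wt, the markers graded with the amount of Vpreb3. From cells with 1 Vpreb3 UMI to cells with 4 or more, Cd24a went from 290 CPM (242 to 345) to 1036 CPM (931 to 1149) and Spib from 238 to 775 CPM. Fam129c went from 45.3 to 409 CPM, Akap12 from 34.0 to 287 CPM and Cd93 from 15.9 (6.38 to 32.7) to 92.9 CPM (63.5 to 131). Ighd, a gene of mature cells, ran the other way, from 1524 to 644 CPM, while Ighm went from 4469 to 7882 CPM. At least 2 of the 5 markers were seen in 23.2%, 47.7%, 69.4% and 86.9% of wt cells with 1, 2, 3 and 4 or more Vpreb3 UMIs. Median depth was 2190, 2415, 2602 and 2516 UMIs across these steps.

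In db/db the steps were smaller and less certain. Cells with 1 Vpreb3 UMI had 165 CPM of Cd24a (136 to 198) and the 20 with 4 or more had 271 CPM (144 to 464), with overlapping intervals. Fam129c was at 29.0 CPM (17.7 to 44.7) and 125 CPM (45.9 to 273). Ighm was at 2914 CPM (2788 to 3044) and 3798 CPM (3266 to 4391). For Fam129c and Ighm the intervals do not overlap. Spib was at 123, 166, 212 and 271 CPM and Akap12 at 36.2, 11.8, 24.4 and 104 CPM over the 4 steps, and the intervals of the first and last overlap. Ighd was at 1509 and 1294 CPM, with overlapping intervals. At least 2 of the 5 markers were seen in 13.1%, 14.8%, 21.7% and 35.0% of db/db cells over the 4 steps, the last from 7 of 20 cells (15.4 to 59.2), against 113 of 130 wt cells at that step. At a matched Vpreb3 count of 1, Akap12, Fam129c and Cd93 had overlapping intervals in the libraries. Cd93 was at 15.9 CPM (7 UMIs) in wt and 7.24 CPM (5 UMIs, 2.35 to 16.9) in db/db. Cd24a, Spib and Ighm (4469 and 2914 CPM) were lower in db/db at that count.

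**Figure D3:**
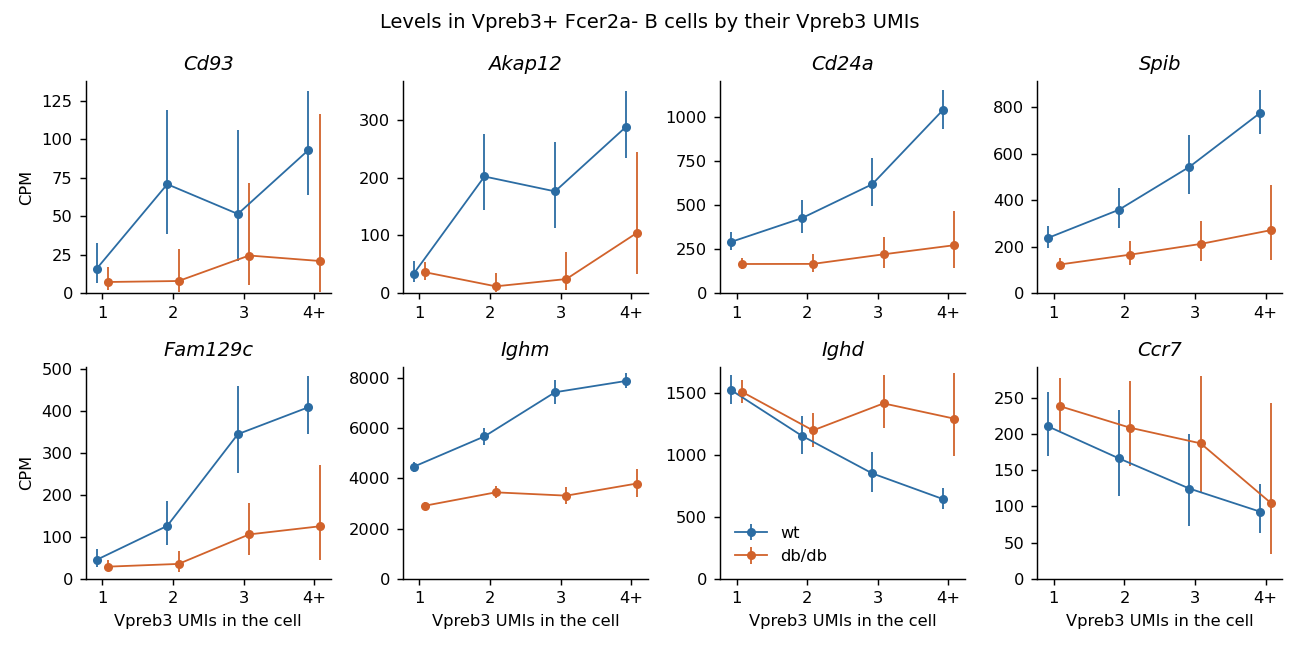
Level (CPM, linear axes from 0) of 8 genes in Vpreb3+ Fcer2a- B cells with 1, 2, 3 or at least 4 Vpreb3 UMIs in wt (blue) and db/db (orange), with exact 95% Poisson intervals. In wt, Cd24a goes from 290 to 1036 CPM and Ighd from 1524 to 644 CPM across the steps, and in db/db the last point rests on 20 cells.

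A few db/db cells did resemble the wt ones. At least 3 of the 5 markers were seen in 131 wt cells (28.0%, 24.0 to 32.3) but 17 db/db cells (3.50%, 2.05 to 5.54), which is 0.125 of the wt share (0.0707 to 0.208). This is a range of a count and not a cell type, and depth moved with it: median UMIs were 2675 and 2400 in these cells and 1920 and 2027 in cells with none of the markers. Genes that did not enter the count followed it in both libraries. Ighm was at 8122 CPM in the 131 wt cells and 5872 CPM (5200 to 6607) in the 17 db/db cells, against 3752 and 2880 CPM in cells with 0 markers. Iglc1, the constant segment of lambda-1 light chain, was at 4228 and 3702 CPM, against 809 and 415 CPM. Zeb2, a repressor of transcription, was at 539 and 383 CPM, against 90.4 and 48.3 CPM. Ccnd2, which encodes cyclin D2, differed between the libraries, with 418 CPM in the wt cells and 42.6 CPM (2 UMIs, 5.15 to 154) in the db/db cells. Apoe, the lipid carrier, was at 8.24 CPM (3 UMIs) in the wt cells and 362 CPM (17 UMIs) in the db/db cells, whereas cells with 0 markers had 285 and 292 CPM.

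Immunoglobulin transcripts set the wt cells apart as well. Ighm (chr12:113418558-113422730, IgM constant segment) stood at 6092 CPM in wt, against 3117 CPM in db/db, a ratio of 0.512 (0.491 to 0.533), and in Fcer2a+ cells at 3457 and 2728 CPM. Ighd was at 1107 and 1419 CPM (ratio 1.28, 1.19 to 1.38), with 1716 and 1652 CPM in Fcer2a+ cells. There were 5.50 Ighm UMIs per Ighd UMI in wt (5.18 to 5.85), against 2.20 in db/db (2.07 to 2.33), and 2.01 and 1.65 in Fcer2a+ cells. Vpreb3- Fcer2a- cells had 2.53 (2.40 to 2.68) in wt and 2.27 (2.16 to 2.39) in db/db, so the db/db value was not particular to Vpreb3+ Fcer2a- cells. Lambda light chains were also more frequent in wt. Among cells with at least 3 light chain UMIs, lambda exceeded kappa in 91 of 464 wt cells (19.6%, 16.1 to 23.5) and 36 of 485 db/db cells (7.42%, 5.25 to 10.1), against 8.51% and 6.48% of Fcer2a+ cells. In Vpreb3- Fcer2a- cells the shares were 8.77% in wt and 7.74% in db/db. Iglc1 was at 2509 and 738 CPM, Iglc2 at 2027 and 1335 CPM, and Igkc at 9502 and 13256 CPM. The lambda constant genes are near copies of each other, so their separate counts are uncertain.

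Genes of earlier stages in the marrow were at or near 0. Of 10 pro-B and pre-B genes none reached 30 UMIs over both libraries. Rag1, a subunit of the recombinase, had 8 UMIs in 4 wt cells (7.14 CPM) and 0 in db/db, where 3 counts would be 2.69 CPM. Igll1, Dntt, Vpreb2 and Cd34 had 0 UMIs in both libraries. Myb, a factor of immature cells, had 30 UMIs in wt (26.8 CPM) and 3 in db/db (2.69 CPM), a ratio of 0.101 (0.0196 to 0.323).

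Across all genes with at least 30 UMIs in the Vpreb3+ Fcer2a- cells of both libraries together, 35 of 6769 (0.517%) differed at least 2-fold between db/db and wt on the scale of log2 of CPM plus 50: 23 were lower in db/db (0.340%) and 12 higher (0.177%). Fcer2a+ cells had 9 of 8589 (0.105%), 4 lower and 5 higher (0.0466% and 0.0582%). The counts rest on different numbers of UMIs and were not tested against each other. The lowest genes by the naming rule given here were Iglc1 (log2 ratio -1.70), the interferon-induced Ifi27l2a (-1.64), Ccnd2 (-1.59), Cd24a (-1.49), Zeb2 (-1.47), Fam129c (-1.47) and Spib (-1.36). In Fcer2a+ cells the same genes had log2 ratios of -0.30, -0.93, -0.26, -0.28, -0.56, -0.34 and -0.25. Without the cells holding markers of another lineage, the values for Cd24a, Spib and Fam129c in Vpreb3+ Fcer2a- cells were -1.47, -1.38 and -1.46.

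Among genes that passed the naming rule, which leaves out those abundant in other blood cells and those without a name, the 8 highest in db/db were led by Igha and Jchain, products of antibody-secreting cells. Of the db/db UMIs, 880 of 946 for Igha and all 348 for Jchain lay in 1 cell, and without it Jchain had a log2 ratio of -0.026. Igha UMIs were found in 16 db/db and 5 wt cells, and its log2 ratio was at least 0.67 under every alternative. The other six genes had at most 3.36% of their db/db UMIs in any 1 cell. Ptpn22, a phosphatase that dampens antigen receptor signals, had 17.0 CPM in wt against 109 CPM in db/db (log2 ratio 1.24), and Sapcd1, whose role in B cells is not settled, at 28.6 and 134 CPM (1.22). Both were as high in Fcer2a+ cells of db/db, with log2 ratios of 1.18 and 1.41. Fkbp5, a glucocorticoid-induced co-chaperone, was at 8.03 and 63.7 CPM (0.97), Rflnb at 31.2 and 109 CPM (0.96), the stress-induced Sesn1 at 53.6 and 146 CPM (0.92), and Zfp36l2, which binds and destabilises mRNA, at 370 and 728 CPM (0.89). Larger log2 ratios than those of Fkbp5, Rflnb, Sesn1 and Zfp36l2, from 1.10 for S100a6 to 1.42 for Lyz2, belonged to S100a6, Emb, Apoe, Gm10260, S100a8, S100a9, Ctla2a and Lyz2, which did not pass the rule. In Fcer2a+ cells the log2 ratio of Rflnb was 0.14, with 79.96 and 93.3 CPM in the libraries.

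Gene lists placed these values in order. The immature B list was lower in db/db for 11 of 12 measured genes with a median log2 ratio of -0.71, 11 with a ratio interval below 1 (12.9% of all genes) and 4 past 2-fold (Cd24a, Spib, Fam129c, Akap12). The median over all genes was -0.04, and 58.2% of them were lower in db/db. Besides those named above, Ly6d, a surface antigen of B lineage cells, was at 3225 and 1947 CPM, the factor Sox4 at 49.1 and 17.0 CPM, and the sodium pump subunit Atp1b1 at 97.3 and 40.4 CPM. Bcl2l11, which encodes the death factor Bim, was the exception with 20.5 and 48.4 CPM (ratio 2.36, 1.42 to 4.03). In Fcer2a+ cells the median of the same list was -0.10, with 5 of 12 intervals below 1 (9.94% of all genes there) and 1 above (9.80%).

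Transcription factors of the B lineage were lower in db/db for 21 of 23 genes (median -0.37), where 58.2% of all genes were lower, and 17 had intervals below 1, where 12.9% of all genes did. Pax5, which fixes B cell identity, was at 780 and 520 CPM, Ebf1 at 1900 and 1299 CPM, Pou2f2 (Oct-2) at 976 and 670 CPM, and Ikzf3 (Aiolos) at 316 and 186 CPM. Klf2, which keeps lymphocytes quiescent and circulating, was higher, at 1045 and 1316 CPM. In Fcer2a+ cells 20 of 23 genes of this list were lower (median -0.15), beside 50.9% of all genes there. Intervals lay below 1 for 11 of them, beside 9.94%.

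Of the B cell receptor list, 14 of 16 genes outside the rule were lower in db/db (median -0.33), again beside 58.2% of all genes, and 12 had intervals below 1, beside 12.9%. Cd72, an inhibitory coreceptor, was past 2-fold at 330 and 139 CPM (ratio 0.421, 0.347 to 0.509), while Fcer2a+ cells had 141 and 140 CPM. The phosphatase Ptpn6 (SHP-1) was at 472 and 307 CPM, the adaptor Blnk at 245 and 158 CPM, and the kinase Syk at 602 and 444 CPM. Cd81, which encodes a tetraspanin, was higher, at 137 and 184 CPM. Ms4a1 (CD20), used by the rule, was at 2284 and 1177 CPM. In Fcer2a+ cells 11 of 16 genes of this list were lower (median -0.08), beside 50.9% of all genes there, and 6 had intervals below 1, beside 9.94%.

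BAFF receptors and survival genes split. Tnfrsf13c, the BAFF receptor, had 461 CPM in wt against 309 CPM in db/db, and Tnfrsf13b (TACI) at 357 and 175 CPM (ratio 0.490, 0.411 to 0.583). Mcl1, which keeps B cells alive, was at 873 and 623 CPM. Bcl2, another survival factor, was higher in db/db, at 115 and 164 CPM, and so was the death effector Bax, at 72.3 and 132 CPM. Over 13 measured genes 7 were lower, where 58.2% of all genes were lower, and 3 had intervals below 1, beside 12.9% of all genes. Intervals lay above 1 for 4 (7.84% of all genes), and the list median was -0.07.

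Genes of follicular B cells and of homing leaned the other way. Of 12 follicular genes outside the rule 8 were higher in db/db (median 0.31), where 58.2% of all genes were lower. Intervals lay above 1 for 7 (7.84% of all genes), among them Ccr7, the receptor that guides B cells into lymph nodes, at 156 and 221 CPM, Cxcr5, the follicle-homing receptor, at 105 and 143 CPM, and Gpr183 at 139 and 203 CPM. None was past 2-fold. Cr2 was at 120 and 115 CPM and the complement regulator Cd55 at 565 and 550 CPM. In Fcer2a+ cells 10 of 12 were lower in db/db, beside 50.9% of all genes there, with a median of -0.15. The homing list, which shares 4 genes with the follicular list, was higher for 13 of 16 (median 0.22), 8 with intervals above 1, with integrin subunit Itgb7 at 52.7 and 89.7 CPM. MHC class II genes, which present antigen, were higher for 9 of 10 (median 0.18), H2-Aa most at 3492 and 5497 CPM. Of these, 5 had intervals above 1 and 1 below. The same shares of all genes, 58.2% lower, 7.84% with intervals above 1 and 12.9% below, stand beside both lists. H2-Ob, which restrains peptide loading, was lower at 353 and 230.5 CPM.

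**Figure D4:**
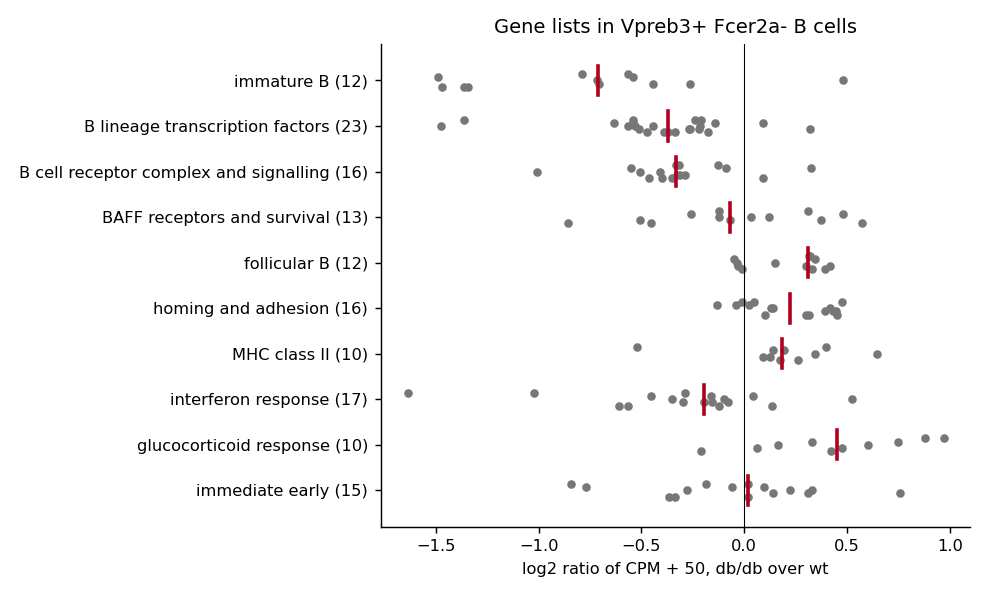
Log2 of the db/db to wt ratio of CPM plus 50 in Vpreb3+ Fcer2a- B cells for each measured gene (grey points) of 10 lists, with the number of measured genes in parentheses and the list median as a red bar. The immature B median is at -0.71 and the follicular B median at 0.31, and genes used by the rule are left out.

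Responses outside the lineage were mixed. Of 17 interferon-induced genes 14 were lower in db/db (median -0.20), beside 58.2% of all genes, and 8 had intervals below 1, beside 12.9%. They were led by Ifi27l2a at 761 and 211 CPM and Trim30a at 190 and 68.2 CPM. In Fcer2a+ cells 20 of 21 interferon-induced genes were lower (median -0.17), beside 50.9% of all genes there. Intervals lay below 1 for 14 of the 21, beside 9.94%. Glucocorticoid-induced genes were higher for 9 of 10 (median 0.45, and 0.44 in Fcer2a+ cells), where 58.2% of all genes were lower. Intervals lay above 1 for 7 of them, beside 7.84% of all genes. Txnip was at 411 and 799 CPM and Tsc22d3 at 372 and 660 CPM. Immediate early genes had a median of 0.02 with members far apart: Egr1, induced by receptor signals, was at 52.7 and 7.17 CPM (ratio 0.136, 0.0562 to 0.286) and the early activation marker Cd69 at 163 and 310 CPM. Cell cycle genes (7 measured, median -0.03), marginal zone (8, -0.02), germinal centre and plasma cell (5, 0.02), immunoglobulin constant (8, 0.04) and B1 or age-associated lists (8, 0.14) had medians between -0.03 and 0.14. Of the list medians above, those of the BAFF, immediate early, cell cycle, marginal zone, germinal centre and immunoglobulin constant lists turned sign under at least 1 alternative. In the B1 list Apoe was at 104 and 315 CPM and S100a6 at 50.9 and 167 CPM, both past 2-fold.

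Set beside Fcer2a+ cells of their own library, the Vpreb3+ Fcer2a- cells differed more in wt than in db/db. In wt 16 of 7546 genes outside the rule were past 2-fold (0.212%), 14 higher (0.186%) and 2 lower (0.0265%), and in db/db 2 were higher (0.0265%) and none lower. The 2 lower in wt and the 2 higher in db/db were the same genes, the neutrophil transcripts S100a8 and S100a9. Genes short of 30 UMIs over the 2 groups in either library were not counted. No gene was past 2-fold in the same direction in both libraries (0 of 7546, 0%). The ratio interval lay above 1 for 973 genes in wt (12.9%) and 237 in db/db (3.14%), and below 1 for 539 (7.14%) and 224 (2.97%). The immature B list had a median log2 ratio of 0.86 over 13 genes in wt and 0.17 over 10 in db/db, where 58.0% and 48.8% of all genes were higher. Follicular genes were lower for 12 of 12 in wt (median -0.47) and 9 of 12 in db/db (-0.10), MHC class II for 10 of 10 in both (-0.43 and -0.09), and homing genes for 12 of 16 and 9 of 16 (-0.31 and -0.02). The rule itself set these groups apart by Fcer2a and Vpreb3, so the values describe the groups.

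**Figure D5:**
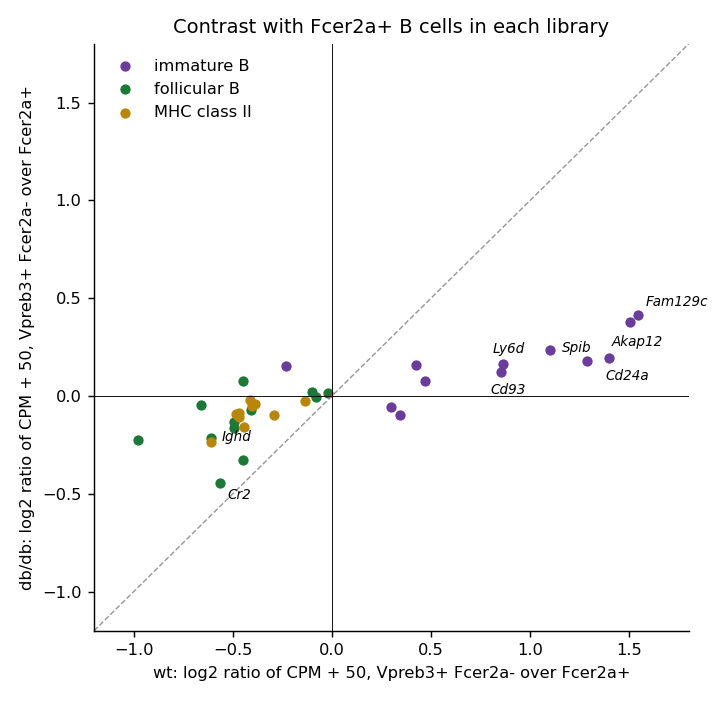
Log2 ratio of CPM plus 50, Vpreb3+ Fcer2a- over Fcer2a+ B cells, in wt (horizontal) and db/db (vertical), for measured genes of the immature B (purple), follicular B (green) and MHC class II lists (gold), with equal ratios on the dashed line. Immature genes reach 1.54 in wt and 0.42 in db/db (both Fam129c), and follicular genes lie to the left of 0 in wt.

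Of 7179 genes that the naming rule admits, 67 (0.933%) were higher and 45 (0.627%) lower in both libraries with both intervals excluding 1. The 10 higher ones named by the rule were Gzma (log2 ratios 0.51 in wt and 0.56 in db/db), Pafah1b3 (1.44 and 0.42), Fam129c (1.54 and 0.42), Pycard (0.68 and 0.40), Akap12 (1.505 and 0.38), Rrbp1 (0.35 and 0.44), Pkib (0.35 and 0.38), Nudt19 (0.34 and 0.33), Nedd4 (1.06 and 0.32) and Chchd10 (1.00 and 0.32). Pafah1b3 encodes a subunit of a platelet-activating factor hydrolase, Pycard the inflammasome adaptor ASC, and Nedd4 a ubiquitin ligase. Gzma encodes a granzyme of cytotoxic cells: its log2 ratio in wt was -0.081 among cells with under 5% haemoglobin UMIs, and in db/db -0.51 among cells with at least 2 Vpreb3 UMIs. The lower ones were led by the lectin Clec2i (-0.61 and -0.45) and Cr2 (-0.56 and -0.44), with Trim34a (-0.42 and -0.35), Rin3 (-0.35 and -0.44), Ccr7 (-0.45 and -0.33), Cybb (-0.31 and -0.38), a subunit of the phagocyte oxidase, Birc3 (-0.35 and -0.30), Tgif1 (-0.38 and -0.28), Mast4 (-0.36 and -0.28) and Grap (-0.39 and -0.27). Cr2 and Ccr7 mark maturation, and they were the only members of the follicular list among these 20 genes.

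Erythroid transcripts were the most abundant of other blood cells: their 7 markers, haemoglobin genes among them, summed to 19056 and 24098 CPM, and every cell of both libraries held at least 2 of them. The plasmacytoid dendritic cell list summed to 1272 and 796 CPM, but it holds Spib, Irf8 and Tcf4, which B cells express, and its defining marker Siglech had 2 and 1 UMIs. T cell markers summed to 6.25 CPM in wt, and to 11.7 CPM in db/db, with Cd3d, Cd3e and Cd3g at 0 by the rule, Cd4 and Cd8a at 0 in both, and 2 and 4 of 9 markers detected. Neutrophil markers summed to 133 and 473 CPM (7 and 8 of 8 detected, Lcn2 at 0 in wt), platelet markers to 118 and 281 CPM (8 of 8 in both), monocyte markers to 375 and 554 CPM (7 of 8 in both, Cd300e at 0), NK markers to 54.4 and 74.4 CPM (5 and 6 of 6) and plasma cell markers to 302 and 708 CPM (5 of 5 in both). The last sum in db/db includes the 1 barcode rich in Jchain. Their part in the differences between the libraries was not tested, beyond the values without cells carrying such markers given above.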

How the data were processed

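The authors' 2 deposited matrices, 1 for wt and 1 for db/db, hold raw UMI counts that were not normalized. Per the submitters' processing notes they come from Cell Ranger 3.0.2 on mm10, and the cell calling settings are not given in the sources used here. Matrices were read in Python 3.11.15 (numpy 2.4.6, scipy 1.17.1, pandas 2.3.3, matplotlib 3.10.9). No doublet caller was run. UMIs were summed per cell group and library and scaled to CPM, and ratios of CPM plus 50 gave log2 ratios for genes with at least 30 UMIs over the groups compared. A call needs a 2-fold ratio on that scale. With 1 library per group there is no test and no p-value. T cell barcodes for background have at least 2 Cd3 UMIs and no UMI of the B cell markers. The procedure was tested on simulated counts drawn independently, as the intervals assume. That test could not show how the intervals hold where 1 cell carries most UMIs of a gene, as for Igha and Jchain. PCR duplicates are collapsed by UMI, and intervals do not cover differences between mice, between blood draws or between library preparations.

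The members, the gene lists and the rules were chosen with earlier results of these data known. Named genes are the 8 highest and 8 lowest log2 ratios, db/db over wt, with a ratio interval excluding 1, and the 10 highest and 10 lowest against Fcer2a+ cells by the smaller of the libraries' ratios with both intervals excluding 1. Each also had to reach, in the higher library, 10% of the CPM of the other lineages' reference barcodes. Left out were mitochondrial, ribosomal protein, haemoglobin and sex-linked genes, variable segments and genes without a name, and members of the lists could be named. The alternatives changed the limits on genes, mitochondrial, haemoglobin, B marker and Vpreb3 UMIs, the pseudocount, the minimum of UMIs, the fold and the scaling, thinned cells to 1000 UMIs, or left out cells with at least 2 markers of another lineage. In the thinned alternative the rule was applied again to the thinned counts. Some genes that meet the naming rule or belong to the lists are not reported here by name.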

Additional observations from a re-analysis of the deposited data

Results flagged for a closer look

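For 3 genes the wt and db/db libraries gave opposite signs when Vpreb3+ Fcer2a- cells were set beside Fcer2a+ cells, with intervals on opposite sides of 1. The difference between the libraries was not tested, since each genotype is 1 library. S100a8 and S100a9, alarmins made by neutrophils, had log2 ratios of -1.76 and -1.60 in wt and 1.01 and 1.26 in db/db. Few cells carried these UMIs: 1 cell held 66.7% of the 24 S100a8 UMIs in wt Vpreb3+ Fcer2a- cells and 1 cell held 73.8% of the 145 in db/db. Without cells holding at least 2 markers of another lineage, the Vpreb3+ Fcer2a- cells had 6.02 CPM of S100a8 in wt, against 9.83 CPM in db/db, and Fcer2a+ cells had 8.13 and 9.93 CPM. S100a9 was then at 10.0 and 37.1 CPM, and at 12.7 and 24.8 CPM. Btg1, which restrains proliferation, had log2 ratios of 0.19 in wt and -0.10 in db/db, with 1337 and 1147 CPM in Vpreb3+ Fcer2a- cells and 1162 and 1235 CPM in Fcer2a+ cells.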

How the results depend on the processing

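Of 293 values of the main results under alternatives, 251 moved by less than their counting error or by under 1.5 times for counts, and 42 moved. The share ratio of 1.13 was 0.716 with at least 2 Vpreb3 UMIs, 0.168 with at least 4, an alternative chosen after seeing the data like those without the Jchain barcode and without barcodes found in both libraries, and 0.906 with cells thinned to 1000 UMIs. Genes past 2-fold between db/db and wt, 35 as reported, numbered 58 with at least 2 Vpreb3 UMIs, 169 with at least 4, 148 with a pseudocount of 10 CPM and 161 at 1.5-fold. Against Fcer2a+ cells, the 16 genes in wt were 51 with at least 2 Vpreb3 UMIs, 96 with at least 4, 53 with a pseudocount of 10 and 85 at 1.5-fold. The 2 in db/db were 4 with a pseudocount of 10, 157 with at least 4 Vpreb3 UMIs, and 0 without cells holding markers of another lineage, when thinned or with every cell weighted equally. Genes past 2-fold in both libraries numbered 1 with a pseudocount of 10 and 12 with at least 4 Vpreb3 UMIs, where 20 db/db cells remain.

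The immature B median of -0.71 was -0.88 with at least 2 Vpreb3 UMIs, -1.24 with at least 4, -1.12 when thinned, -1.33 with a pseudocount of 10 and -1.34 for genes with at least 100 UMIs, which leaves fewer genes. With at least 2 Vpreb3 UMIs the medians were 0.45 for the follicular, 0.32 for the marginal zone, -0.30 for the immunoglobulin constant, 0.48 for the homing and 0.74 for the glucocorticoid list. With at least 4 they were 0.49 for the follicular, 0.46 for the marginal zone, -0.41 for the immunoglobulin constant, -0.65 for the BAFF, -0.57 for the transcription factor, 1.11 for the glucocorticoid and 0.22 for the immediate early list. Thinned cells gave 0.39 for the marginal zone, -0.38 for the immunoglobulin constant and -0.42 for the interferon list, whose median was -0.41 with a pseudocount of 10. Genes with at least 100 UMIs gave 0.32 for the marginal zone and -0.27 for the immunoglobulin constant list, whose median was -0.15 without the Jchain barcode. Signs turned for Gzma in wt (-0.081 with under 5% haemoglobin UMIs) and in db/db (-0.51 with at least 2 and with at least 4 Vpreb3 UMIs), for Pycard in db/db (-0.032 when thinned), for Nudt19 in db/db (-0.39 with at least 4 Vpreb3 UMIs) and for Jchain between the genotypes (-0.026 without the Jchain barcode). Over all alternatives the medians of the BAFF list ran from -0.65 to 0.11, of the immediate early list from -0.022 to 0.22, of the cell cycle list from -0.088 to 0.037 and of the germinal centre list from -0.20 to 0.087. The cause was not tested. Of 1392 other values, 1161 stayed within counting error and 225 moved with the same sign or uncalled.

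No paired analysis was possible because each genotype is 1 library of pooled blood with no replicate numbers. Leaving out a library was not run for the same reason. At median depths of 2153 and 2382.5 UMIs per cell, absence of a UMI does not show absence of a transcript. Genotype, blood pool and library preparation cannot be told apart.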

Other observations

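Beyond the lists, several genes past 2-fold between db/db and wt in Vpreb3+ Fcer2a- cells were chosen here after their values were seen. Lower in db/db were Pafah1b3 (307 and 111 CPM in wt and db/db), the sulfotransferase gene Chst3 (282 and 104 CPM), Bcl7a, a chromatin remodelling subunit (169 and 55.6 CPM), Marcks, a protein kinase C substrate (150 and 43.0 CPM), Rgs2, which limits G protein signals (119 and 32.3 CPM), and Dusp10, a MAP kinase phosphatase (65.2 and 3.59 CPM). Pafah1b3, Marcks and Rgs2 were also among the 14 genes past 2-fold higher in wt Vpreb3+ Fcer2a- than in wt Fcer2a+ cells. Higher in db/db were Emb, which encodes the adhesion molecule embigin (15.2 and 97.7 CPM), and Ctla2a, a cysteine protease inhibitor (60.7 and 236 CPM). Neither passed the naming rule. Emb was also past 2-fold in Fcer2a+ cells, at 27.4 and 118 CPM in wt and db/db (log2 ratio 1.12).

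Apoe differed in its distribution as well as its level. It was found in 45 of 468 wt and 111 of 486 db/db Vpreb3+ Fcer2a- cells. Leaving out cells with markers of another lineage left 113 CPM in wt, against 278 CPM in db/db, and Fcer2a+ cells then had 188 and 335 CPM.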
